A study of Mus musculus with 14 samples.

Results

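The clustered protocadherins are 57 of the 21900 protein-coding genes in the RefSeq table of the assembly GRCm38.p6, taken here as every gene whose symbol starts with Pcdha, Pcdhb or Pcdhg. Their annotated bodies run from position 36930285 to 37841873 of chromosome 18 (mm10), the alpha genes first, then the beta genes, then the gamma genes. The 14 alpha genes start in 11 bins of 10 kb, the 22 beta genes in 17 bins and the 21 gamma genes in 13 bins, which gives 41 start bins. Bins rather than genes were counted, because loops were called between 10 kb bins and 2 or 3 neighbouring genes can share a bin. The table gives no strand for these genes. The alpha genes end within 1240 bp of each other and the gamma genes within 10 bp, so the end that differs was taken as the start, and the beta genes were read on the same side; 16 of the 22 beta genes have both ends in 1 bin.

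Clustered protocadherins are adhesion molecules of the neuronal surface that belong to the cadherin family. Neurons express different combinations of them, and branches of the same cell use the combination to recognise and avoid each other. In the alpha and gamma clusters each variable exon has its own promoter and is spliced to constant exons shared by the cluster, whereas each beta gene has its whole coding sequence in its own exon. Most of these promoters carry a CTCF site, and CTCF and cohesin are known to bring them to distal enhancers. Enhancers of the alpha genes are known from the stretch between the alpha constant exons and the first beta gene, and enhancers of the beta and gamma genes from the region downstream of the gamma cluster. The C type genes at the end of the alpha and gamma clusters are known to be expressed more evenly across neurons than the other members.

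Contacts of promoters were measured by H3K4me3 PLAC-seq, which combines proximity ligation with immunoprecipitation of chromatin that carries H3K4me3, a mark of active and poised promoters. The cells were F123 mouse embryonic stem cells (ESCs) with a CTCF-AID degron, through which auxin removes CTCF, the factor that binds insulators and halts cohesin, and neural precursor cells (NPCs) made from them. The 4 groups analysed, with 2 samples each according to the titles, were ESC control (0 h of auxin), ESC auxin (48 h) and, on day 4 of differentiation run without or with auxin, NPC control and NPC auxin. Auxin was given as 1 µl of a 500 mM stock per ml of medium, renewed daily. All 4 groups come from the same parental line and the titles of all 4 name the degron, so the controls are degron cells without auxin; the titles of the NPC samples give no hours of auxin. Each group is represented by 1 list of loops from the caller MAPS and 1 from the caller FitHiChIP. There is therefore no replicate check, no test of a condition and no p-value below, and each 95% interval is an exact binomial one that covers counting error only, although neighbouring loops are not independent.

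The MAPS lists held 56714 and 27610 loops for control and auxin ESCs and 82861 and 41667 for control and auxin NPCs, and the total contacts recovered from the FitHiChIP lists ran from 47519917 to 59961568. Where 4 values stand together below, they are in that order: ESC control, ESC auxin, NPC control, NPC auxin. Values are from the MAPS lists, also where a loop is said to be called or not, unless FitHiChIP is named. The auxin lists thus held 0.487 times the loops of their control in ESCs and 0.503 times in NPCs. A change in loops is given below relative to these list ratios, as a log2 ratio; a relative log2 of 0 means that the protocadherins changed as the whole list did. H3K4me3 peak marks were identical in the control and auxin lists of a cell type, so they do not show the mark after auxin. Of 8 ESC marker genes 7 were marked in the ESC lists and 6 in the NPC lists, and of 8 NPC marker genes 7 were marked in each; the others had no listed loop and so no mark to read, and the marks do not check the cell type labels. Deposited mappability of the start bins ran from 0.795 to 0.988, and since many of these genes are close copies, reads may be lost or shared between them.

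Protocadherin loops took a larger share of the list in CTCF-depleted ESCs than in control ESCs, and a similar share in control and CTCF-depleted NPCs. Loops with an anchor in a start bin numbered 270 in control and 234 in auxin ESCs, and 255 in control and 115 in auxin NPCs. That was 0.476, 0.848, 0.308 and 0.276% of the MAPS lists. In ESCs the ratio of 234 to 270 was 1.78 times the list ratio (95% interval 1.49 to 2.13). In NPCs the ratio of 115 to 255 was 0.897 times the list ratio (0.713 to 1.12), so the interval includes the list ratio. The FitHiChIP lists held 195, 167, 175 and 74 loops in the same order, with relative ratios of 1.26 (1.02 to 1.56) in ESCs and 0.764 (0.574 to 1.01) in NPCs.

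**Figure D1:**
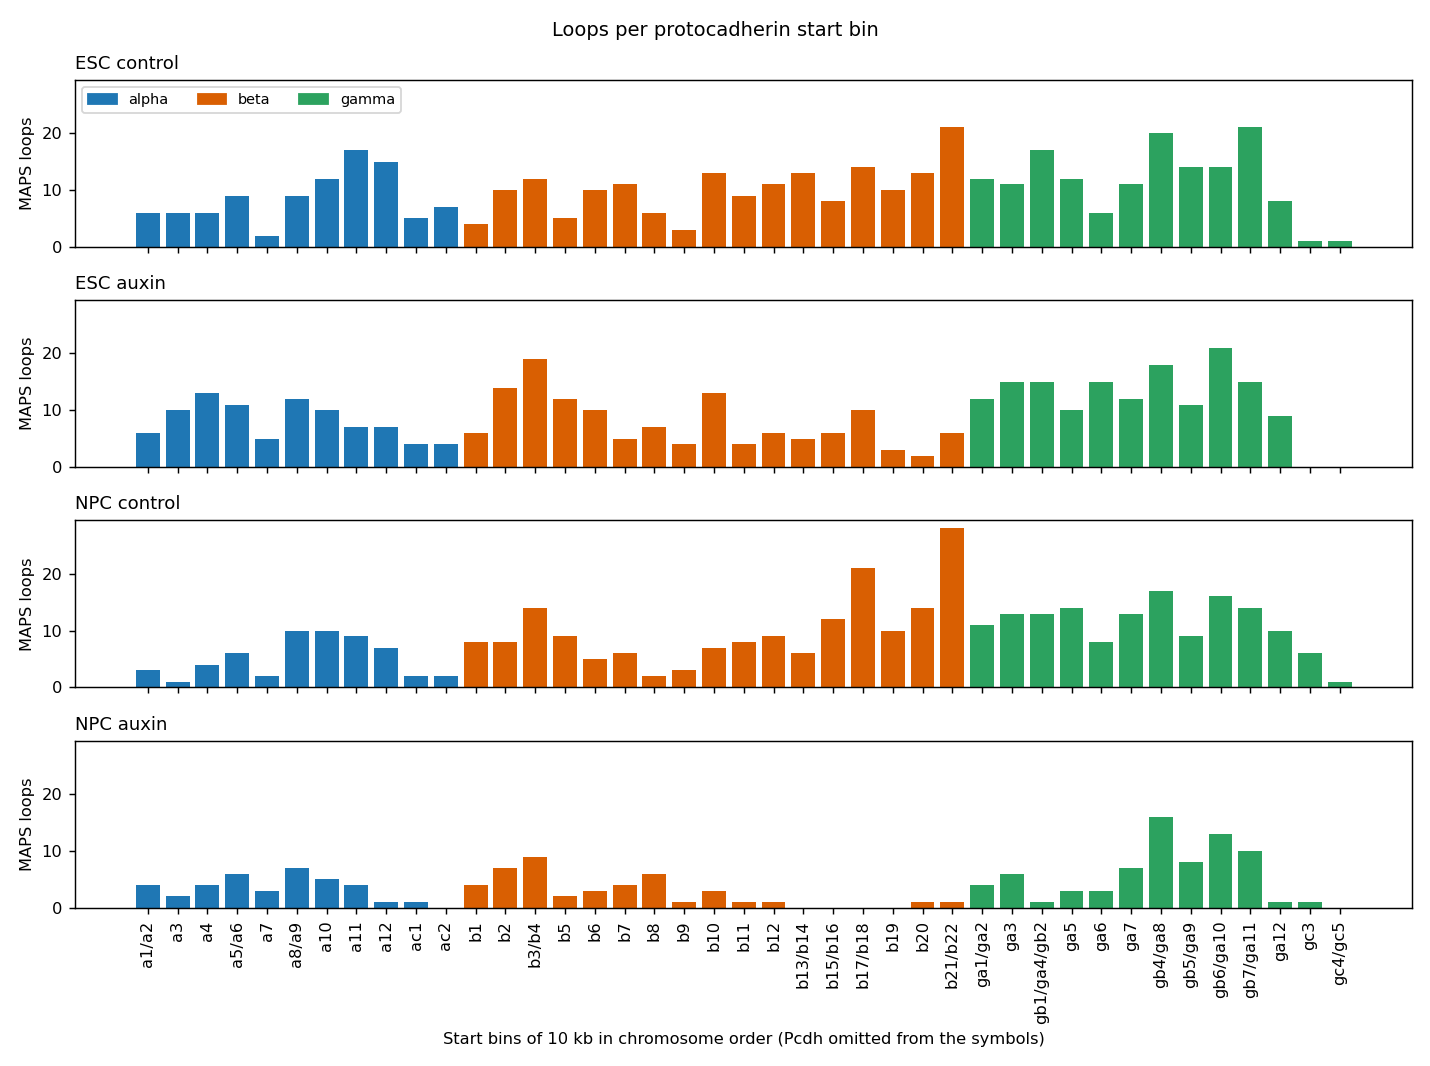
Number of MAPS loops (vertical axis) with an anchor in each of the 41 start bins (horizontal axis, chromosome order) in the 4 lists, with bars coloured by cluster. The bins from Pcdhb11 to Pcdhb22 hold up to 28 loops in NPC control and at most 1 in NPC auxin, while Pcdhgb4/Pcdhga8 holds 17 and 16.

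Bin by bin, the protocadherins were read against the start bins of all protein-coding genes, if the 2 lists compared gave at least 5 loops, using loops plus a pseudocount of 1. In ESCs 39 of the 41 start bins reached 5 loops; those of Pcdhgc3 and of Pcdhgc4/Pcdhgc5 did not. Fewer loops in auxin were seen in 19 of the 39, against 73.6% of the 4118 start bins of all genes, and more loops in 16 of the 39, against 19.4%. At least 2-fold above the list ratio were 20 of the 39 bins (6 of 11 alpha, 8 of 17 beta, 6 of 11 gamma), against 26.4% of all start bins. With a list ratio of 0.487, a bin with equal loops in both lists also passes this cut. The 20 are the 16 bins with more loops and 4 with equal loops, so this count largely restates the one before. At least 2-fold below it was 1 of the 39, the bin of Pcdhb20, against 14.2%. The median relative log2 was 1.04 over the protocadherin bins, the value of a bin with equal loops, and 0.30 over all start bins.

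In NPCs 36 start bins reached 5 loops. Of these 31 held fewer loops in auxin, against 75.8% of 5664 start bins of all genes, and 3 held more, against 18.4%. At least 2-fold below the list ratio were 11 of the 36, of which 8 were beta bins, 1 an alpha and 2 gamma bins, against 15.9% of all start bins. At least 2-fold above it were 3, the bins of Pcdha1/Pcdha2, Pcdha7 and Pcdhb8, against 18.4%. These are the same 3 bins that held more loops. With a list ratio of 0.503 a bin with equal loops falls just short of this cut, so the ESC and NPC counts above it are not alike. The median relative log2 was -0.01 over the protocadherin bins and 0.25 over all.

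The FitHiChIP lists gave fewer such bins in ESCs. There 5 of 37 start bins were at least 2-fold above the list ratio, against 8.91% of 2737 start bins of all genes, and 6 of 37, all of them beta bins, at least 2-fold below it, against 12.1%. In the NPC FitHiChIP lists 6 of 32 were at least 2-fold below, against 7.71% of 4434, and 1 of 32 above, against 17.9%.

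**Figure D2:**
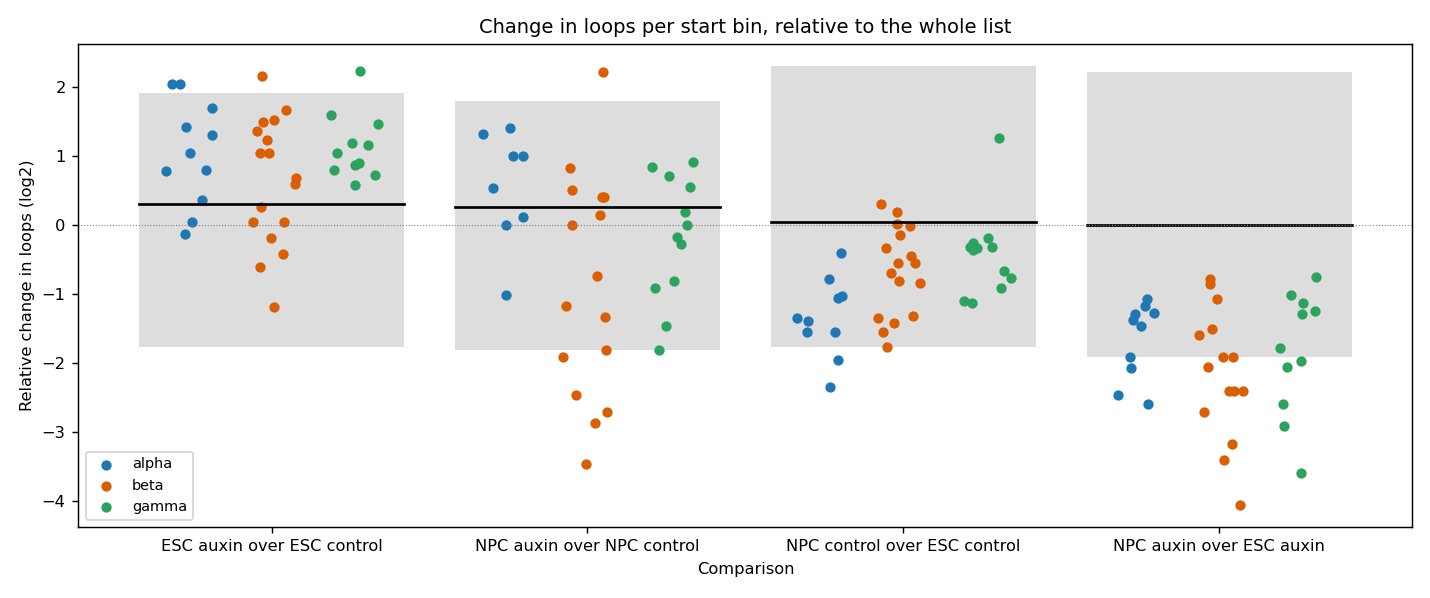
Change in MAPS loops per start bin relative to the list ratio (vertical axis, log2 with a pseudocount of 1) in the 4 comparisons (horizontal axis). Points are protocadherin start bins to which the 2 lists gave at least 5 loops, the grey box spans the 5th to the 95th percentile of all such start bins and the black line is their median; in NPC auxin over ESC auxin the protocadherin median is -1.92 against -0.01.

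The alpha cluster holds the variable genes Pcdha1 to Pcdha12, each an alternative first exon that gives an alpha protocadherin its own extracellular domain, and the C types Pcdhac1 and Pcdhac2. Its 11 bins held 84, 85, 54 and 37 MAPS loops. The relative log2 was 1.06 in ESCs (0.60 to 1.51) and 0.45 in NPCs (-0.20 to 1.08). Most alpha loops ran downstream, 86.2% of the alpha loop ends in ESC control and 94.6 to 96.4% in the other 3 lists, and 69.4 to 77.3% in the FitHiChIP lists. In the FitHiChIP lists, with 70, 85, 58 and 34 loops, the values were 0.84 (0.37 to 1.32) and 0.08 (-0.57 to 0.72).

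Contacts of the alpha promoters with the stretch that holds their known enhancers were fewer in both auxin lists than in the controls, but many were still called. The stretch was taken as the 11 bins from 37150001 to 37260000, between the last alpha start bin and the first beta start bin; the positions of the enhancers themselves are not in the sources used here. From alpha start bins to this stretch there were 34, 19, 29 and 20 MAPS loops, a relative log2 of 0.20 in ESCs (-0.69 to 1.05) and 0.46 in NPCs (-0.44 to 1.33). The FitHiChIP lists held 15, 8, 16 and 10.

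The partner bin used most in the stretch ran from 37210001 to 37220000, took 10, 8, 10 and 8 of these loops with either caller, and is marked as an H3K4me3 peak in both cell types. It was looped to 10 of the 11 alpha start bins in each control and to 8 in each auxin list. The median contact count of those loops was 42, 31.5, 43.5 and 28, and the median ratio of contacts to the number the caller expected was 3.72, 2.38, 4.34 and 3.40. In ESCs 8 start bins were looped to it in both lists, and the ratio was lower in auxin in 8 of 8. In NPCs it was lower in 7 of 8, with the bin of Pcdha3 as the exception. The contact count itself was lower in auxin in 8 of 8 in ESCs and in 5 of 8 in NPCs. No share over all shared loops stands beside these counts, so they do not show if these contacts differ from others.

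**Figure D3:**
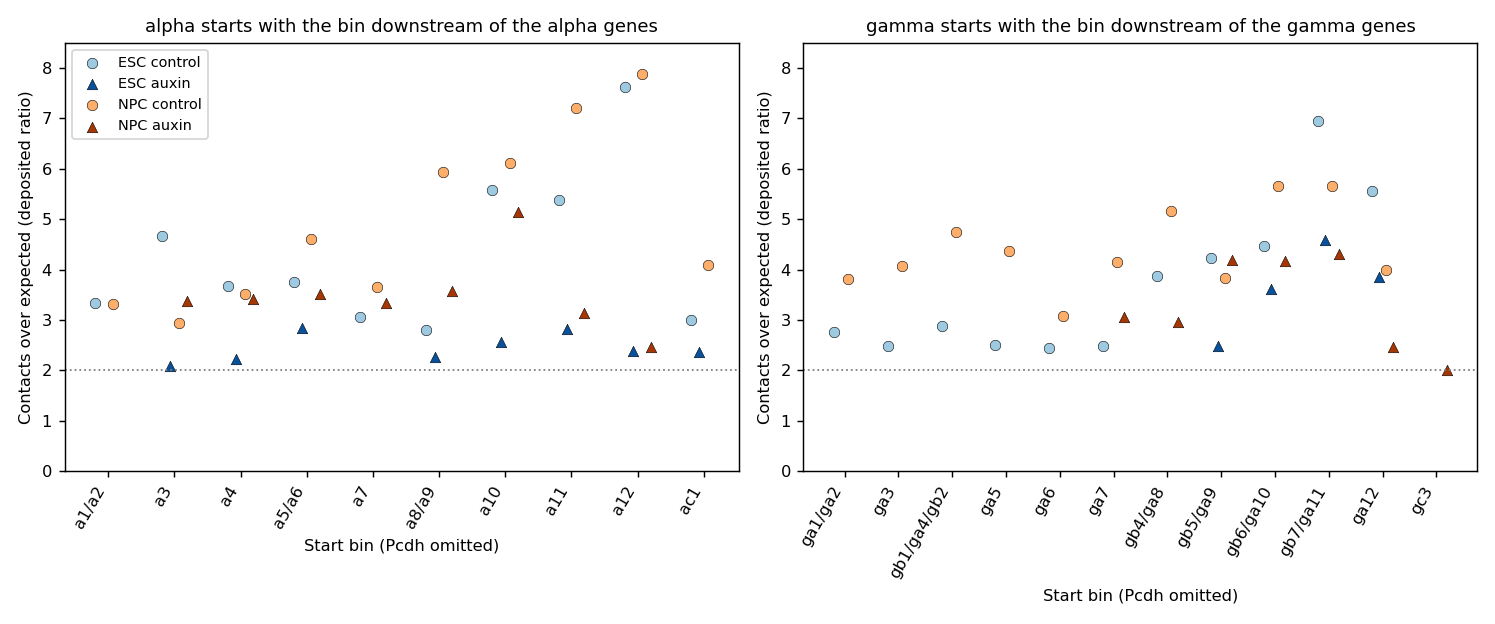
Deposited ratio of contacts to expected contacts (vertical axis, linear; the dotted line at 2 is the lowest ratio a MAPS list holds) of each alpha start bin with the bin at 37210001 (left) and of each gamma start bin with the bin at 37880001 (right). Circles are control lists and triangles auxin lists, and a missing point means that no loop was called; Pcdha12 goes from 7.62 to 2.39 in ESCs and from 7.88 to 2.47 in NPCs.

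Pcdha12, the last variable alpha gene, had the strongest of these contacts in both controls by ratio. Its bin had 82 contacts with the 37210001 bin in control and 28 in auxin ESCs, and 70 in control and 23 in auxin NPCs. Relative to the median of all loops shared by the 2 lists, this was a log2 change of -1.44 in ESCs (-2.12 to -0.81) and -1.54 in NPCs (-2.28 to -0.84), the lowest of all shared alpha loops in each cell type. The FitHiChIP lists gave -1.33 (-1.94 to -0.75) and -1.81 (-2.53 to -1.14), the lowest values among their 74 and 46 shared protocadherin loops. The number of loops of the Pcdha12 bin to any partner was 15, 7, 7 and 1.

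Pcdha11, the variable gene before it, had 69, 43, 74 and 35 contacts with the same bin, at ratios of 5.39, 2.81, 7.21 and 3.13. Its loops with the whole downstream stretch numbered 8, 1, 5 and 2, and in ESC auxin the contact with the 37210001 bin was the only one. The Pcdha10 bin had 66, 35, 55 and 52 contacts there, at ratios of 5.57, 2.57, 6.11 and 5.14: its NPC lists were close to each other, and ESC auxin was below ESC control. The Pcdha8/Pcdha9 bin had 37, 34, 55 and 37 contacts, and its loops to any partner numbered 9, 12, 10 and 7.

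From Pcdha1 to Pcdha7, contacts with the 37210001 bin numbered at most 47, the value of Pcdha3 in ESC control. Pcdha4, for example, had 37, 24, 26 and 28 contacts there, and the Pcdha7 bin had 26 in control ESCs, 23 and 24 in control and auxin NPCs, and no called loop in auxin ESCs. The first bin, of Pcdha1/Pcdha2, had 30 in ESC control, 21 in NPC control and no called loop in the auxin lists. Split by position after the values were seen, the 7 bins from Pcdha1 to Pcdha10 held 17, 12, 17 and 16 loops to the downstream stretch, and the 2 bins of Pcdha11 and Pcdha12 held 14, 4, 10 and 3. The intervals of the relative change overlapped between the 2 sets in both cell types.

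In ESC auxin the alpha start bins held more long loops to the gamma genes. Of 143 possible pairs of an alpha and a gamma start bin, 5 were looped in control and 27 in auxin ESCs, and 0 in control and 3 in auxin NPCs. The relative log2 in ESCs was 3.47 (2.07 to 5.21). The FitHiChIP lists held 10, 41, 0 and 3, a relative log2 of 2.60 in ESCs (1.57 to 3.76).

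These loops spanned 650 to 790 kb. Over the same distances, all MAPS loops with a peak at both anchors went from 405 in ESC control to 321 in ESC auxin. Against that ratio of 0.793 the relative log2 of the alpha to gamma loops was 2.77 (1.37 to 4.50), and 2.23 (1.21 to 3.39) in the FitHiChIP lists. The 27 loops came from 9 alpha bins and 9 gamma bins and were weak, with 14 to 32 contacts (median 19) and ratios of 2.44 to 4.41. The strongest by contacts joined Pcdha11 with the bin of Pcdhgb1, Pcdhga4 and Pcdhgb2, with 32 contacts at a ratio of 4.31. Pcdha4 joined Pcdhgb4/Pcdhga8 with 29 contacts in ESC auxin at a ratio of 4.41 and with 14 in NPC auxin at 2.69. Neither of the 2 was called in a control list.

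Pcdha4 shows the gain of gamma loops in auxin within its own bin. Its loops to gamma start bins numbered 0, 4, 0 and 2, to beta start bins 1, 4, 3 and 1, and to the alpha downstream stretch 2, 3, 1 and 1. Altogether it held 6, 13, 4 and 4 loops, a relative log2 of 2.04 in ESCs. Pcdha7 was like it in ESCs, with 2, 5, 2 and 3 loops and the same relative log2 of 2.04.

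Loops between alpha and beta start bins numbered 23, 28, 18 and 9. The relative log2 was 1.32 in ESCs (0.47 to 2.18) and -0.01 in NPCs (-1.35 to 1.22). Against all loops with a peak at both anchors over the same 240 to 550 kb it was 0.68 in ESCs, with an interval that includes 0 (-0.17 to 1.54). Of the 23 loops that all 4 MAPS lists shared, out of 543 in any, 3 joined the first beta gene, Pcdhb1, with alpha bins. The contact of Pcdhb1 with Pcdha11 had 45, 34, 32 and 24 contacts, that with Pcdha8/Pcdha9 29, 33, 41 and 28, and that with Pcdha10 32, 28, 35 and 31. Pcdhb1 lies next to the alpha downstream stretch, and 4, 6, 7 and 4 of its 4, 6, 8 and 4 loops joined alpha start bins.

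The C types of the alpha cluster had few loops. Pcdhac1 held 5, 4, 2 and 1 MAPS loops and Pcdhac2, the last alpha gene, 7, 4, 2 and 0. With the 37210001 bin Pcdhac1 had 51 and 45 contacts in control and auxin ESCs, 61 in control NPCs and no called loop in auxin NPCs. FitHiChIP called it in NPC auxin, with 30 contacts at a ratio of 2.42. Pcdhac2, at a distance of 70 kb, had no MAPS loop there, and 1 FitHiChIP loop, in NPC control, with 53 contacts at a ratio of 1.87. Of its loops 6, 4, 2 and 0 joined variable alpha genes, such as Pcdha11 with 96 contacts in ESC control, and Pcdha10 with 52 contacts in ESC control and 75 in ESC auxin. In NPC auxin no loop between 2 alpha start bins was called by MAPS, against 10, 4 and 2 in the other lists, whereas the FitHiChIP lists held 27, 25, 23 and 15 such loops.

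**Figure D4:**
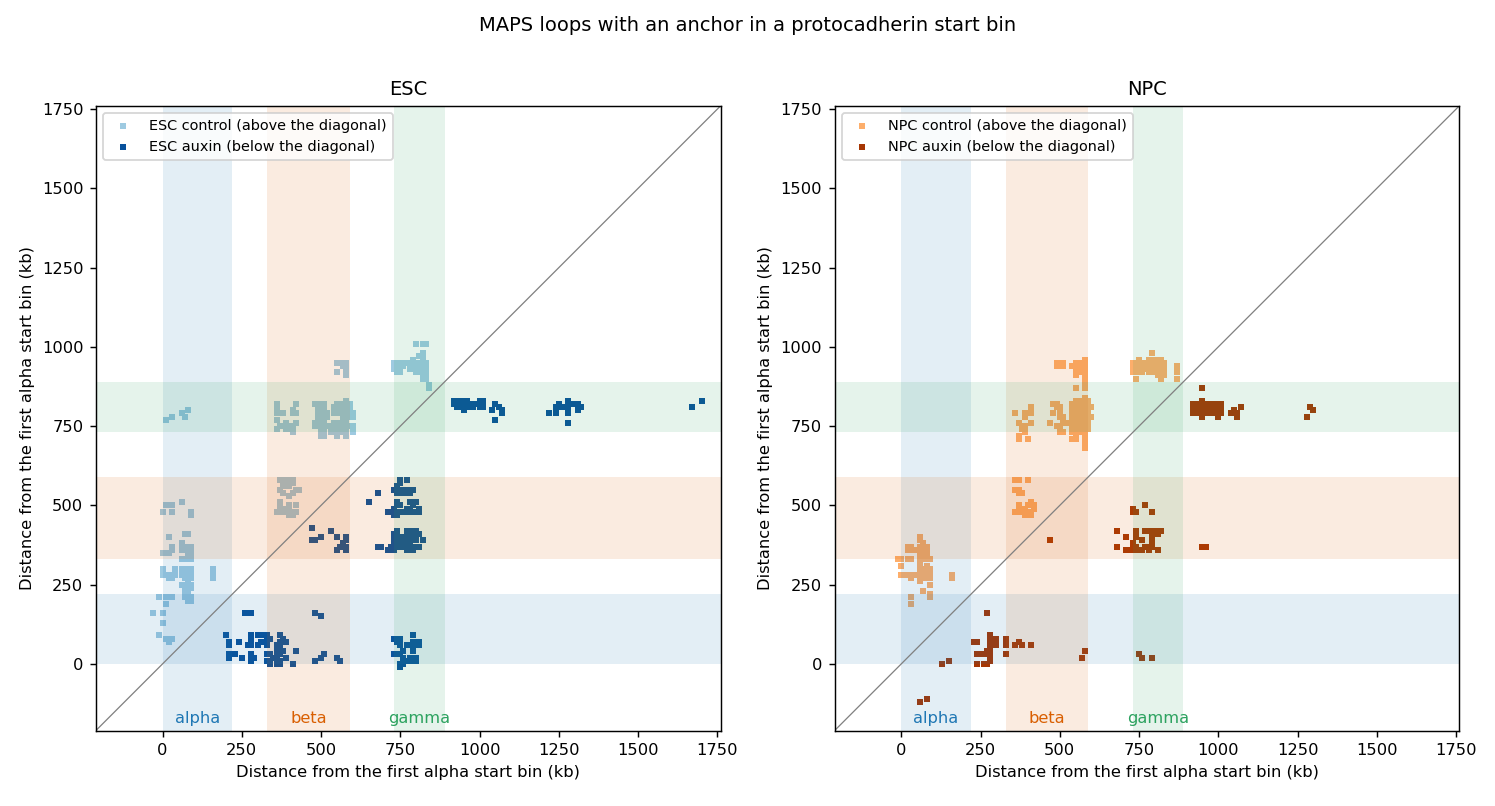
Every MAPS loop with an anchor in a protocadherin start bin, by the distance of its anchors from the first alpha start bin (both axes, kb), for ESCs (left) and NPCs (right), with control loops above the diagonal and auxin loops below. Bands mark the 3 clusters; loops between the alpha and gamma bands number 5 in control and 27 in auxin ESCs, and loops of gamma bins beyond the gamma downstream region number 0 and 20.

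The beta genes, which encode protocadherins without the shared constant domain, divided along the chromosome. Their 17 bins together held 149, 122, 150 and 42 MAPS loops, a relative log2 of 0.75 in ESCs (0.39 to 1.11) and -0.84 in NPCs (-1.37 to -0.34). The FitHiChIP lists, with 111, 58, 91 and 22, gave -0.38 in ESCs (-0.86 to 0.09), the opposite sign, and -1.19 in NPCs (-1.94 to -0.51). Over the 17 bins the relative change had a Spearman correlation with position of -0.85 in ESCs and of -0.85 in NPCs. The alpha bins had a similar order, with -0.71 and -0.85, and the gamma bins had -0.46 and 0.20. In the FitHiChIP lists the values were -0.71 and -0.72 for beta, -0.52 and -0.78 for alpha, and -0.17 and 0.19 for gamma bins. The bins share their libraries, their control list within a cell type and many loops, so this is a description of these lists.

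The beta bins were divided between Pcdhb10 and Pcdhb11 after the values were seen. The 9 bins from Pcdhb1 to Pcdhb10 held 66, 88, 55 and 38 MAPS loops, a relative log2 of 1.45 in ESCs (0.98 to 1.94) and 0.46 in NPCs (-0.18 to 1.08). The 8 bins from Pcdhb11 to Pcdhb22 held 99, 42, 108 and 4, a relative log2 of -0.20 in ESCs (-0.76 to 0.34) and -3.76 in NPCs (-5.66 to -2.37). The later bins were thus almost empty in CTCF-depleted NPCs. The FitHiChIP lists held 51, 45, 30 and 20 loops in the earlier bins and 73, 15, 70 and 5 in the later ones. For the earlier bins the FitHiChIP relative log2 was 0.38 in ESCs (-0.23 to 0.99) and 0.27 in NPCs (-0.62 to 1.13), so both intervals include 0. For the later bins it was -1.72 in ESCs (-2.63 to -0.91) and -2.95 in NPCs (-4.62 to -1.66).

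The last beta bin, of Pcdhb21/Pcdhb22, held the most loops of any protocadherin bin in NPC control. Its loops numbered 21, 6, 28 and 1. Those to gamma start bins were 11, 2, 13 and 0, and those to the region downstream of the gamma cluster 4, 0, 5 and 0. Its contact with the bin of Pcdhgb1, Pcdhga4 and Pcdhgb2 counted 104 in control and 58 in auxin ESCs and 82 in control NPCs, and that with Pcdhgb4/Pcdhga8 91 in ESC control and 83 in NPC control. Neither was called in NPC auxin, and the latter was called in neither auxin list.

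The neighbouring bins were nearly empty in NPC auxin as well. Pcdhb20 held 13, 2, 14 and 1 loops, a relative log2 of -1.18 in ESCs and -1.92 in NPCs. The Pcdhb17/Pcdhb18 bin held 14, 10, 21 and 0, a relative log2 of 0.59 in ESCs and -3.47 in NPCs, where its 12 loops to gamma start bins in NPC control were all absent from the auxin list; FitHiChIP called 1 there, with Pcdhgb6/Pcdhga10. With Pcdhgb4/Pcdhga8 it had 53, 38 and 46 contacts in the first 3 lists. Also without a loop in NPC auxin were the bins of Pcdhb13/Pcdhb14 (13, 5, 6 and 0), Pcdhb15/Pcdhb16 (8, 6, 12 and 0) and Pcdhb19 (10, 3, 10 and 0), which are named because they were seen at 0.

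The earlier beta bins had more loops to the gamma genes in auxin than in control. From the Pcdhb1 to Pcdhb10 bins to the gamma A and B type bins there were 20, 45, 13 and 23 MAPS loops, a relative log2 of 2.21 in ESCs (1.42 to 3.05) and 1.81 in NPCs (0.77 to 2.92). From the Pcdhb11 to Pcdhb22 bins there were 63, 26, 60 and 2, a relative log2 of -0.24 in ESCs (-0.96 to 0.44) and -3.92 in NPCs (-6.99 to -2.00). The FitHiChIP counts were 13, 29, 1 and 8 for the earlier bins and 52, 9, 39 and 2 for the later ones. In both auxin lists most beta to gamma loops thus came from the earlier beta bins, and in both controls from the later ones.

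Pcdhb3/Pcdhb4 held 12, 19, 14 and 9 loops, of which 1, 8, 1 and 5 went to gamma start bins. With Pcdhga5 its bin had 34 contacts in auxin ESCs and 16 in control NPCs. Pcdhb5 held 5, 12, 9 and 2 loops, a relative log2 of 2.15 in ESCs and -0.75 in NPCs, with 2, 7, 5 and 1 to gamma start bins. Pcdhb2 held 10, 14, 8 and 7.

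Pcdhb8 was the beta bin with the highest relative change in NPCs, at 2.21, with 6, 7, 2 and 6 loops. In the FitHiChIP lists it held 4, 2, 0 and 0 loops, so they show no gain there in NPCs. Their highest beta value in NPCs was 1.85, at Pcdhb2. Pcdhb8 had 3, 5, 0 and 5 MAPS loops to gamma start bins. It is also 1 of 5 start bins that carry no H3K4me3 mark in the NPC lists, with Pcdha3, Pcdhb9, Pcdhb10 and Pcdhb13/Pcdhb14, and every listed loop has a mark on at least 1 anchor. The part of the missing mark in the change at Pcdhb8 was not tested. All 41 start bins carry the mark in the ESC lists.

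Loops within the beta cluster were also fewer. Between 2 beta start bins there were 24, 10, 20 and 1 MAPS loops (24, 6, 15 and 5 in the FitHiChIP lists), of which 16, 8, 13 and 0 joined an earlier with a later bin. The relative log2 in ESCs was -0.22 (-1.45 to 0.89). Median anchor reads per 1000000 contacts of the beta bins, from the FitHiChIP lists, were 78.4, 81.6, 70.4 and 63.6. A list gives this read coverage only for bins with a FitHiChIP loop, here 17, 16, 15 and 11 bins. The medians therefore cover different bins and leave out those that lost all such loops. The part of read coverage in the change of loops in NPCs was not tested.

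**Figure D5:**
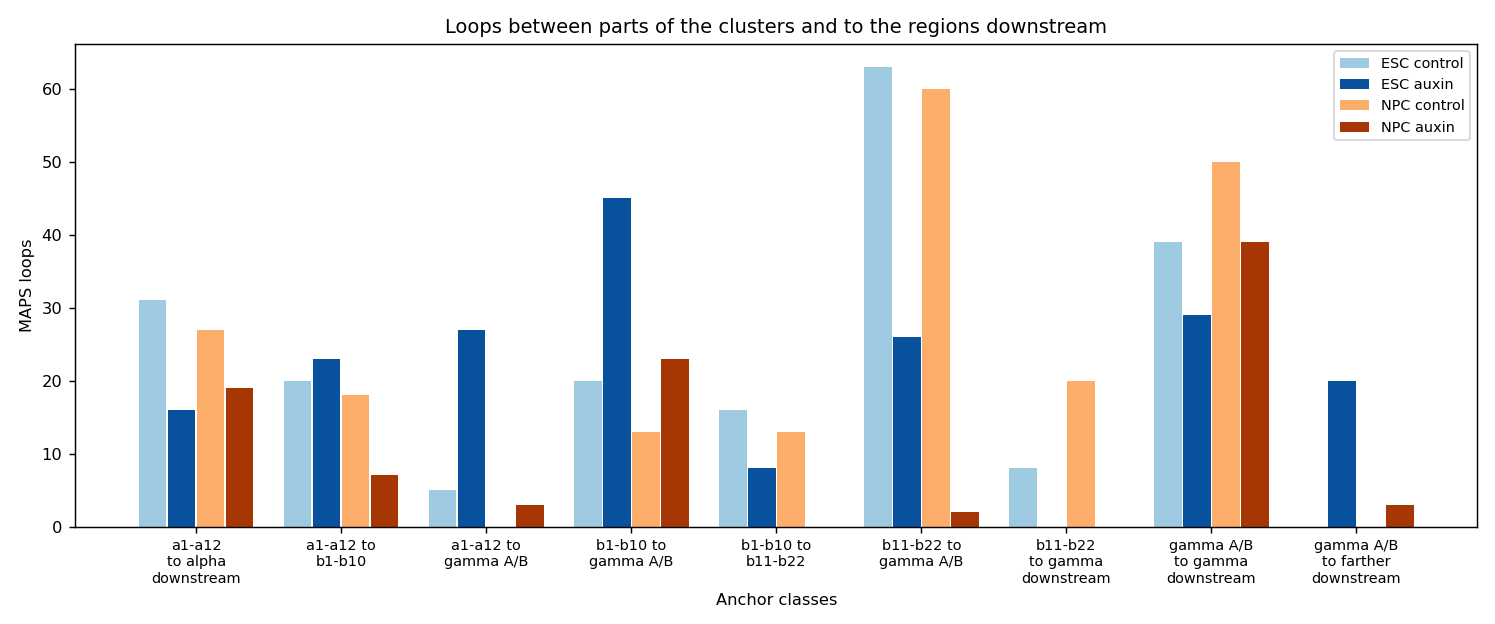
Number of MAPS loops (vertical axis) in the 4 lists for 9 pairs of anchor classes (horizontal axis; a1 to a12, b1 to b10, b11 to b22 and gamma A/B are start bins). The b1 to b10 bins have 20 loops with gamma A/B bins in control and 45 in auxin ESCs, and the b11 to b22 bins 60 in NPC control and 2 in NPC auxin.

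The gamma cluster holds variable genes of the A and B types, alternative first exons like those of the alpha cluster, and the C types Pcdhgc3, Pcdhgc4 and Pcdhgc5. Its 13 bins held 148, 153, 145 and 73 MAPS loops, a relative log2 of 1.09 in ESCs (0.75 to 1.42) and 0.00 in NPCs (-0.42 to 0.42). No MAPS list held a loop between 2 gamma start bins; the FitHiChIP lists held 4, 4, 5 and 3. In control cells gamma loops ran mainly upstream, to the beta genes, with 29.1% of loop ends downstream in ESC control, 32.0% in ESC auxin and 40.7% in NPC control. In NPC auxin 58.9% ran downstream.

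Loops from gamma start bins to the 200 kb downstream of the cluster, from 37850001 to 38050000, were called in every list. There were 39, 29, 53 and 40 (19, 10, 27 and 15 in the FitHiChIP lists), a relative log2 of 0.61 in ESCs (-0.13 to 1.34). Of the 23 loops shared by all 4 lists 10 belong here. The most used partner was the bin from 37880001 to 37890000, which is marked in both cell types and was looped to 11, 4, 11 and 7 of the 13 gamma start bins. The Pcdhgb7/Pcdhga11 bin had 216, 160, 151 and 137 contacts with it, at ratios of 6.94, 4.59, 5.66 and 4.30. The Pcdhgb6/Pcdhga10 bin had 119, 109, 123 and 112.

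In the auxin lists most of these loops, 28 of 29 in ESCs and 36 of 40 in NPCs, came from the last A and B type bins. The C type bins lie nearer to that region and held 0, 0, 3 and 1 loops to it. Split after the values were seen, the 5 bins from Pcdhgb4 to Pcdhga12 held 27, 28, 25 and 36 MAPS loops to the downstream region, a relative log2 of 1.09 in ESCs (0.28 to 1.91) and 1.52 in NPCs (0.74 to 2.32). The 6 bins from Pcdhga1 to Pcdhga7 held 12, 1, 25 and 3, a relative log2 of -2.55 in ESCs (-7.96 to 0.21) and -2.07 in NPCs (-4.44 to -0.35). The FitHiChIP counts were 15, 10, 16 and 13 for the 5 bins from Pcdhgb4 to Pcdhga12 and 4, 0, 10 and 1 for the 6 from Pcdhga1 to Pcdhga7.

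Pcdhga12, the last A type gene, showed the largest drop at a shared gamma loop in ESCs. Its contact with the bin at 37850001 counted 219 in ESC control and 71 in ESC auxin, a log2 change of -1.52 relative to all shared loops (-1.93 to -1.13). With the bin at 37880001 it had 183, 137, 107 and 87 contacts. Its loops to any partner numbered 8, 9, 10 and 1. The Pcdhgb5/Pcdhga9 bin, with 14, 11, 9 and 8 loops, had 65, 44, 56 and 70 contacts with the bin at 37880001, so NPC auxin was the highest there.

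Pcdhgb4/Pcdhga8 held the most loops of all start bins over the 4 lists, with 20, 18, 17 and 16. Its loops to the downstream region numbered 4, 1, 6 and 10, and those to beta start bins 11, 8, 10 and 4. In NPC auxin it thus had more downstream and fewer beta partners than in NPC control. Pcdhgb6/Pcdhga10 held 14, 21, 16 and 13 loops and Pcdhgb7/Pcdhga11 21, 15, 14 and 10; the latter had 10, 1, 7 and 1 loops to beta start bins and 8, 9, 5 and 9 downstream.

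The bins at the upstream end of the cluster were not alike in their loops to beta genes. Pcdhga6 held 6, 15, 8 and 3 loops, a relative log2 of 2.23 in ESCs, and 4, 11, 4 and 3 of them went to beta start bins. The bin of Pcdhgb1, Pcdhga4 and Pcdhgb2 held 17, 15, 13 and 1, a relative log2 of 0.87 in ESCs and -1.82 in NPCs, with 11, 9, 7 and 0 to beta start bins. Pcdhga1/Pcdhga2, the first gamma bin, held 12, 12, 11 and 4.

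In ESC auxin gamma genes also had loops beyond the downstream region. Loops from gamma start bins to bins further downstream numbered 0, 20, 0 and 3 in the MAPS lists and 1, 19, 0 and 2 in the FitHiChIP lists. The 20 loops joined 6 gamma bins with 12 partner bins, over 430 to 870 kb (median 470), with 19 to 46 contacts. The partner used most was the bin at 38210001, where Pcdh1 starts, a protocadherin outside the clusters. The Pcdhgb7/Pcdhga11 bin had 46 contacts with it at a ratio of 3.11, and Pcdhgb6/Pcdhga10 42 at 3.12. The Pcdh1 bin itself held 11, 17, 14 and 14 loops.

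The reverse was seen for the beta genes and the region downstream of the gamma cluster. The Pcdhb11 to Pcdhb22 bins had 8, 0, 20 and 0 MAPS loops to it and 3, 0, 11 and 0 in the FitHiChIP lists. The Pcdhb21/Pcdhb22 contact with the bin at 37880001 counted 42 in ESC control at a ratio of 5.80 and 63 in NPC control at 11.3, and was called in neither auxin list. Pcdhb20 had 19 and 23 contacts with it in the 2 controls and Pcdhb17/Pcdhb18 had 20 and 20. The only beta loops to this region in a MAPS auxin list were 2 of Pcdhb3/Pcdhb4 in NPC auxin.

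The gamma C types had few loops. Pcdhgc3 held 1, 0, 6 and 1 MAPS loops, and Pcdhgc4/Pcdhgc5, the last genes of the locus, 1, 0, 1 and 0. The Pcdhgc3 loops of NPC control joined the later beta bins Pcdhb17/Pcdhb18 (27 contacts) and Pcdhb21/Pcdhb22 (40 contacts) and bins 30 to 70 kb downstream. Loops under 20 kb are not in the lists, so contacts of the C types with the nearest downstream bins are only partly covered.

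Between the clusters, the beta to gamma loops numbered 83, 71, 76 and 25, and 65, 38, 42 and 10 in the FitHiChIP lists. Against all MAPS loops with a peak at both anchors over the same 150 to 460 kb, which went from 9608 to 6794 in ESCs and from 9412 to 6554 in NPCs, the relative log2 was 0.27 in ESCs (-0.20 to 0.75) and -1.08 in NPCs (-1.80 to -0.41). The beta to gamma class therefore differed from these loops at matched distance in NPCs and not beyond counting error in ESCs. In the NPC lists 4 beta start bins carry no mark. Their loops to gamma bins were counted but lie outside the class used for comparison.

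Most protocadherin loops stayed within the locus. Their other anchor lay between the first alpha start bin and the end of the gamma genes for 81.5% of loops in control and 78.6% in auxin ESCs, and for 71.0% in control and 59.1% in auxin NPCs. For gamma bins alone the shares were 73.6, 67.3, 63.4 and 41.1%. The locus spans 92 bins of 10 kb, more than the median loop distance of any list. No share for other stretches of this length was taken, so a high share need not be particular to these genes. A peak mark at both anchors was held by 71.9, 79.5, 62.0 and 56.5% of protocadherin loops, against 26.4, 36.2, 19.1 and 26.6% of the whole lists. The median distance was 210, 320, 210 and 250 kb, against 230, 240, 260 and 300 kb over the lists, so that only in ESC auxin the protocadherin median lay above that of the list. In the FitHiChIP lists, which reach farther, it lay below in all 4, at 200, 350, 180 and 185 kb against 370, 500, 390 and 470 kb.

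The number of loops hides a turnover of the bin pairs. Of the 270 loops of ESC control 81 were called again in ESC auxin, 30.0% (24.6 to 35.9), against 22.9% of the whole list. FitHiChIP had the opposite order, with 37.9% of protocadherin loops called again against 43.3% of its list. Of the 255 loops of NPC control 43 were called again in NPC auxin, 16.9% (12.5 to 22), against 27.0%, and with FitHiChIP 26.3% against 35.8%. The share in NPCs was 33.3% for alpha loops, 6.67% for beta loops (3.24 to 11.9) and 15.9% for gamma loops. Of the 543 loops in any list 108 were called in auxin ESCs alone and 83 in control ESCs alone, 82 in control NPCs alone and 33 in auxin NPCs alone. The 2 controls alone shared 86 and the 2 auxin lists alone 27.

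Where a loop was called in both MAPS lists, its contacts had a median change near 0. The median log2 change, centred on all shared loops, was -0.02 over 81 loops in ESCs and -0.07 over 43 in NPCs. In the FitHiChIP lists it was -0.14 over 74 loops in ESCs and -0.36 over 46 in NPCs. There 39 of the 46 lay below the median of all shared loops and 6 above. In the MAPS lists the interval lay below 0 for 9 of the 81 loops and above 0 for 1 in ESCs. In NPCs it lay below 0 for 6 of the 43 and above 0 for 1. The loops of Pcdha12 and Pcdhga12 described above were among those below. With FitHiChIP 14 of 74 and 17 of 46 lay below 0 and 0 above. No share over all 12979 and 22391 shared MAPS loops stands beside these counts, so they do not show if the protocadherin loops differ from others.

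Relative to its list, NPC control held fewer protocadherin loops than ESC control. The protocadherin bins together had a relative log2 of -0.63 (-0.88 to -0.38), with -1.18 for the alpha bins (-1.71 to -0.67), -0.54 for the beta bins and -0.58 for the gamma bins. The FitHiChIP values for alpha, beta and gamma bins lay close together, at -0.69, -0.71 and -0.76. At least 2-fold below the list ratio were 15 of 39 start bins, 8 of them alpha bins, against 13.7% of 6090 start bins of all genes (with FitHiChIP 12 of 38, 2 of them alpha bins), and 1 was at least 2-fold above, Pcdhgc3, against 20%. Pcdha11 held 17 loops in ESC control and 9 in NPC control, and Pcdha12 15 and 7. Over 150 loops in both controls the median centred change of contacts was -0.27, with 111 below 0.

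NPC auxin held fewer protocadherin loops than ESC auxin in nearly every bin. The relative log2 was -1.62 (-1.95 to -1.29), and -1.79, -2.13 and -1.66 for the alpha, beta and gamma bins. At least 2-fold below the list ratio were 33 of 36 start bins, against 18.3% of 3776 start bins of all genes, and 0 were above, against 20.5%. In loops, 36 of these 36 bins held fewer and 0 more, against 24.6% and 68.5% of the same 3776 start bins. Without the minimum of loops, 39 of the 41 bins held fewer, 1 the same and 1, Pcdhgc3, more. This comparison shares each of its lists with the auxin comparisons above, so it is no independent result.

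Other protocadherins and neighbouring genes had loops in all 4 lists. The 10 start bins of non-clustered protocadherins held 17, 21, 37 and 22 MAPS loops; of the 3 to which the NPC lists gave at least 5 loops, 0 were 2-fold below or above the list ratio in NPC auxin, against 15.9% and 18.4% of all start bins. The 31 start bins of other genes within 1 Mb of the clusters held 130, 114, 135 and 95. By the same count 1 of 17 was below and 5 of 17 above. In ESC auxin over ESC control 8 of 17 neighbour bins were above and 1 below, with a median relative log2 of 0.82. In NPC control over ESC control 6 of 17 were below and 1 above, with a median of -0.77, as for the protocadherin bins. In NPC auxin over ESC auxin 3 of 13 were below and 0 above. Of these genes 3 are read-through models that share start bins with alpha genes, so these counts overlap those of the protocadherins. The 12 genes known to act on the clusters, such as Ctcf, the cohesin genes Rad21 and Smc3 and the silencer Setdb1, held 20, 15, 32 and 25. Of their bins to which the NPC lists gave at least 5 loops, 1 of 5 was at least 2-fold below the list ratio and 1 above.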

How the data were processed

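H3K4me3 PLAC-seq loop lists of 4 groups (8 samples, 2 per group) were analysed; 6 samples of 3 further groups were not analysed here. Per the submitters' processing notes, BWA, Picard and mm10 were used, with no versions. No source used here says if the 2 samples of a group were merged for calling. Each of the 8 deposited lists belongs to MAPS or FitHiChIP per the labels. Per the file headers, a MAPS line gives the contact count of a pair of 10 kb bins, the background signal expected by the caller, their ratio, an FDR (p-value adjusted by the authors' caller) and a peak mark per anchor. The deposited MAPS lists hold counts of at least 12, a ratio of at least 2.00, an FDR under 0.01, 20 to 1000 kb and 19 autosomes. The deposited FitHiChIP lists hold counts, the signal expected per bin pair, the read coverage of each anchor, a q-value under 0.01 and the fraction of contacts expected, up to 2000 kb over 21 chromosomes; expected contacts divided by the deposited fraction gave each list's total.

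MAPS lists were the main ones and FitHiChIP lists the alternative. A loop belonged to the protocadherins when an anchor lay in the 10 kb bin of a member's start. It was counted once in the total, and once in each cluster it joined. Relative changes are log2 ratios of loops minus that of the list totals, with exact Clopper-Pearson 95% intervals; per bin a pseudocount of 1 was added. The background was the start bins of all protein-coding genes with at least 5 loops over the 2 lists, from the RefSeq promoter table's strand (17492 genes), a peak-marked gene end (2894) or the member rule (57); 1457 genes had no start bin. Shared loops had both anchors in the same bins. Genes were named by rule: the C types, the first and last gene of each cluster, the 3 bins with most loops and the 2 lowest and 2 highest relative changes of each auxin comparison; others appear as partners or where noted. Members, lists and splits were chosen with earlier results of these data known. The counting was tested on simulated data. Python 3.11.15, pandas 2.3.3, NumPy 2.4.6, SciPy 1.17.1 and Matplotlib 3.10.9 were used.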

Additional observations from a re-analysis of the deposited data

Results flagged for a closer look

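Loops at all protocadherin start bins had relative values of opposite sign in the 2 cell types. Auxin over control was 0.83 on the log2 scale in ESCs and -0.16 in NPCs, a gap of 0.989, and 0.34 and -0.39 in the FitHiChIP lists. The intervals of the NPC values include 0 with MAPS (-0.49 to 0.17) and with FitHiChIP (-0.80 to 0.01). Loops between alpha and beta start bins had 1.32 in ESCs and -0.01 in NPCs, a gap of 1.33, and 0.02 and -0.73 in the FitHiChIP lists. Loops from beta start bins to bins within the clusters that hold no member start had 1.28 and -0.59, a gap of 1.87, and 0.56 and -1.15 in the FitHiChIP lists. With 1 list per group none of these differences between cell types was tested, and several of the single values lie within counting error of 0.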

How the results depend on the processing

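Of 111 alternative values 74 stayed within the counting interval or 1.5 times of the value reported, 36 moved further and 1 changed direction; the causes were not tested. The relative ratio of loops in ESC auxin, 1.78, was 1.26 in the FitHiChIP lists, 1.39 with these limited to 1000 kb, 1.31 with MAPS loops of FDR under 0.0001 and 1.48 relative to the loops of chromosome 18, an alternative chosen after seeing the data. The beta bins turned from 1.68 to 0.770 in the FitHiChIP lists, the gamma bins went from 2.12 to 1.60, and the beta bins in NPC auxin over ESC auxin from 0.228 to 0.347. The share called again in ESCs, 30.0%, was 37.9% in the FitHiChIP lists with or without the distance limit, 19.1% with FDR under 0.0001 and 69.3% with anchors 1 bin apart allowed; in NPCs, 16.9% became 26.3%, 26.4% with the limit, and 40.0% with 1 bin allowed. The share within the clusters was 88.2% in ESC control in the FitHiChIP lists with or without the limit, 77.7% and 78.2% in NPC control and 75.7% and 76.7% in NPC auxin; with FDR under 0.0001 it was 68.4% in ESC auxin, 63.5% in control NPCs and 43.2% in auxin-treated NPCs, and with at least 20 contacts 49.4% in NPC auxin. Loops of alpha bins to their downstream stretch were 15, 8, 16 and 10 in the FitHiChIP lists, and with FDR under 0.0001 5 in auxin ESCs and 11 in auxin NPCs. With at least 10 loops, 0 bins were 2-fold above the list ratio in NPC auxin and 0 in NPC control over ESC control. Median centred contacts at shared loops in the FitHiChIP lists were -0.14, -0.36, -0.37 and -0.60 for ESC auxin, NPC auxin, NPC over ESC control and NPC over ESC auxin. Scaled by total contacts, the MAPS median in ESC auxin was -0.15, against -0.13 over all shared loops scaled in the same way.

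No paired analysis was possible because each group is represented by 1 list per caller, and leaving out a replicate was not possible for the same reason. Calls depend on depth and thresholds, and a contact without a call can lie just under them. Bins of 10 kb do not separate genes that share a bin, and mapping between close copies limits the counts.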
